A study of Rattus norvegicus with 24 samples.

Results

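Gonadotropin-releasing hormone (GnRH) given alone was compared with no hormone treatment in rat cumulus-oocyte complexes, each an oocyte with the cumulus granulosa cells around it. The comparison rests on 12 of the 24 arrays of the series: those of 6 GnRH rats (numbers 4 to 6 and 16 to 18) and 6 control rats (numbers 1 to 3 and 13 to 15). They were chosen by their labels, with 1 bead array per rat. All were sexually mature female Sprague Dawley rats, and the labels mark them only by treatment, GnRH or control. The other 12 arrays, 6 of GnRH followed by equine chorionic gonadotropin and then human chorionic gonadotropin (GnRH+eCG+hCG) and 6 of GnRH+eCG, served as a yardstick. The sources used here give no dose of GnRH, interval before collection, age or stage of the oestrous cycle. A probe was tested where its detection score exceeded 0.99 (detection p below 0.01) on 6 or more of these arrays. This held for 7200 of 22226 probes, or 32.4%, of which 5035 carried the symbols of 4946 genes.

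GnRH is a hypothalamic peptide that makes the pituitary release luteinizing hormone (LH) and follicle-stimulating hormone (FSH), and GnRH agonists are used to synchronise the oestrous cycle of rats. LH acts on the theca and mural granulosa cells of a large follicle, which pass the signal to the cumulus as epidermal growth factor-like peptides. The cumulus then expands, oestrogen synthesis is shut down and granulosa cells begin to luteinize. hCG binds the LH receptor and sets off the same programme.

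Median raw signal was 150.0 to 197.4 on the GnRH arrays and 151.8 to 225.1 on the control arrays, and 30.0% to 34.3% and 25.3% to 37.9% of all probes were detected. In each of the rat number ranges 1 to 12 and 13 to 24, which differed in median raw signal among controls (195.3 to 225.1 against 151.8 to 161.1), 3 rats of each group were present. GnRH rats 5 and 16 stood apart from the rest of their group. Their arrays correlated with each other across the tested probes at r = 0.976, and with the other 4 GnRH arrays at 0.889 to 0.930. In rats 5 and 16, 447 and 559 probes lay more than 2-fold from the median of the 12 arrays, against 26 to 54 in the other GnRH rats and 57 to 307 in control rats. Control rats 1 and 3 lay about as far from their group. The distance of an array from the mean of the other 5 of its group was 0.487 and 0.532 in rats 5 and 16. It was 0.493 and 0.487 in control rats 1 and 3, and control rat 1 correlated with the other controls at 0.903 to 0.936. Results are given with and without GnRH rats 5 and 16, with all control rats kept in both.

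No probe passed the threshold. By limma with Benjamini-Hochberg adjustment over all 7200 probes, 0 were higher and 0 lower (0% each) in GnRH than in control at an adjusted p under 0.05, and the lowest adjusted p was 0.337. At an unadjusted p under 0.05 there were 863 probes (12%), 486 higher (6.75%) and 377 lower (5.24%), where the threshold alone would give 360. All 6 GnRH values lay above all 6 control values in 10 probes (0.139%) and below them in 4 (0.0556%). The median difference over all tested probes was -0.01 on the log2 scale. For 92.0% of probes the 95% interval of the difference did not reach a 2-fold change, and for 66.6% it did not reach 1.5-fold. Without rats 5 and 16 the unadjusted count was 233, and these shares were 95.8% and 70.8%. The count was 481 without rat 5 alone, 422 without rat 16 alone and 1296 without rat 17. It was 275 within rats 1 to 12, 475 within rats 13 to 24 and 373 when arrays were only scaled to the same median.

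The 24 genes with the smallest unadjusted p, 12 in each direction, all had an adjusted p of 0.337. The differences ran from 0.42 to 2.32 in the 12 higher in GnRH and from -1.17 to -0.41 in the 12 lower (log2, limma). They mixed many functions. Higher in GnRH were Mrpl49, a protein of the mitochondrial ribosome, Tram1 of the translocation channel of the endoplasmic reticulum, Slc25a5, the mitochondrial exchanger of ADP and ATP, the RNA polymerase II subunit Polr2d, Btaf1, which removes the TATA-binding protein from DNA, the small GTPase Ralb and the hemoglobin genes Hba-a1 and Hbb-b1. Lower in GnRH were Amh, Qsox1, Tob2, an inhibitor of proliferation, Il13ra2, a decoy receptor of interleukin 13, and the axonemal dynein light chain Dnal1. All 24 kept their sign within both ranges of rat numbers and stayed at an unadjusted p under 0.05 without rats 5 and 16. Under median scaling 10 of the 12 higher and 12 of the 12 lower genes stayed at that level. The genes were picked for a small p on these same arrays. These refits are therefore no independent check of them.

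Mrpl49 had 9.38, 9.87 and 10.11 in GnRH rats (lowest, median and highest log2 normalized signal), against 9.17, 9.26 and 9.44 in control rats. Rat 4 alone among the GnRH rats fell within the control range. The difference was 0.52 ± 0.12 (SE, log2), 1.43-fold (limma, unadjusted p 0.00021, adjusted p 0.337). Alkbh1, a demethylase of transfer RNA and DNA, had 7.21, 7.43 and 7.75 in GnRH rats and 6.71, 6.99 and 7.16 in control rats. It was the 1 gene of these 12 whose groups did not overlap, with a difference of 0.47 ± 0.12. It was detected on 6 GnRH arrays and 3 control arrays, so its control level lay partly at background.

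Akr1c3 showed the largest of these 24 differences. Its product is an aldo-keto reductase that in humans reduces steroids and prostaglandins. Signals were 10.70, 12.37, 9.07, 10.79, 8.17 and 10.67 in GnRH rats 4, 5, 6, 16, 17 and 18, against 6.19, 8.63, 7.21, 8.39, 8.20 and 9.21 in control rats 1, 2, 3, 13, 14 and 15. Rats 6 and 17 lay within the control range and the other 4 GnRH rats above it. The difference was 2.32 ± 0.56 (SE, log2), 5.00-fold (limma, unadjusted p 0.000338, adjusted p 0.337). It was 1.68 without rats 5 and 16, 3.35 within rats 1 to 12 and 1.30 within rats 13 to 24. Of the aldo-keto reductase list, 10 of 16 genes on the array were measured, 2 were higher and 0 lower at an unadjusted p under 0.05, and the median difference was 0.02.

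Amh, which encodes anti-Müllerian hormone, a granulosa product of small growing follicles, had 7.30, 8.39 and 9.41 in GnRH rats and 9.16, 9.68 and 10.11 in control rats (lowest, median and highest). GnRH rats 17 and 18 lay within the control range and the other 4 below it. The difference was -1.17 ± 0.34 (SE, log2; limma, unadjusted p 0.0022, adjusted p 0.337), 2.24-fold lower in GnRH, and -1.06 without rats 5 and 16. Qsox1, a secreted enzyme that forms disulfide bonds, had 9.64, 9.92 and 10.27 in GnRH rats and 10.18, 10.57 and 11.35 in control rats. Only GnRH rat 17 reached into the control range. The difference was -0.68 ± 0.16. Dnal1 had 7.62, 7.98 and 8.24 in GnRH rats and 8.38, 8.47 and 8.75 in control rats, with no overlap.

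**Figure D1:**
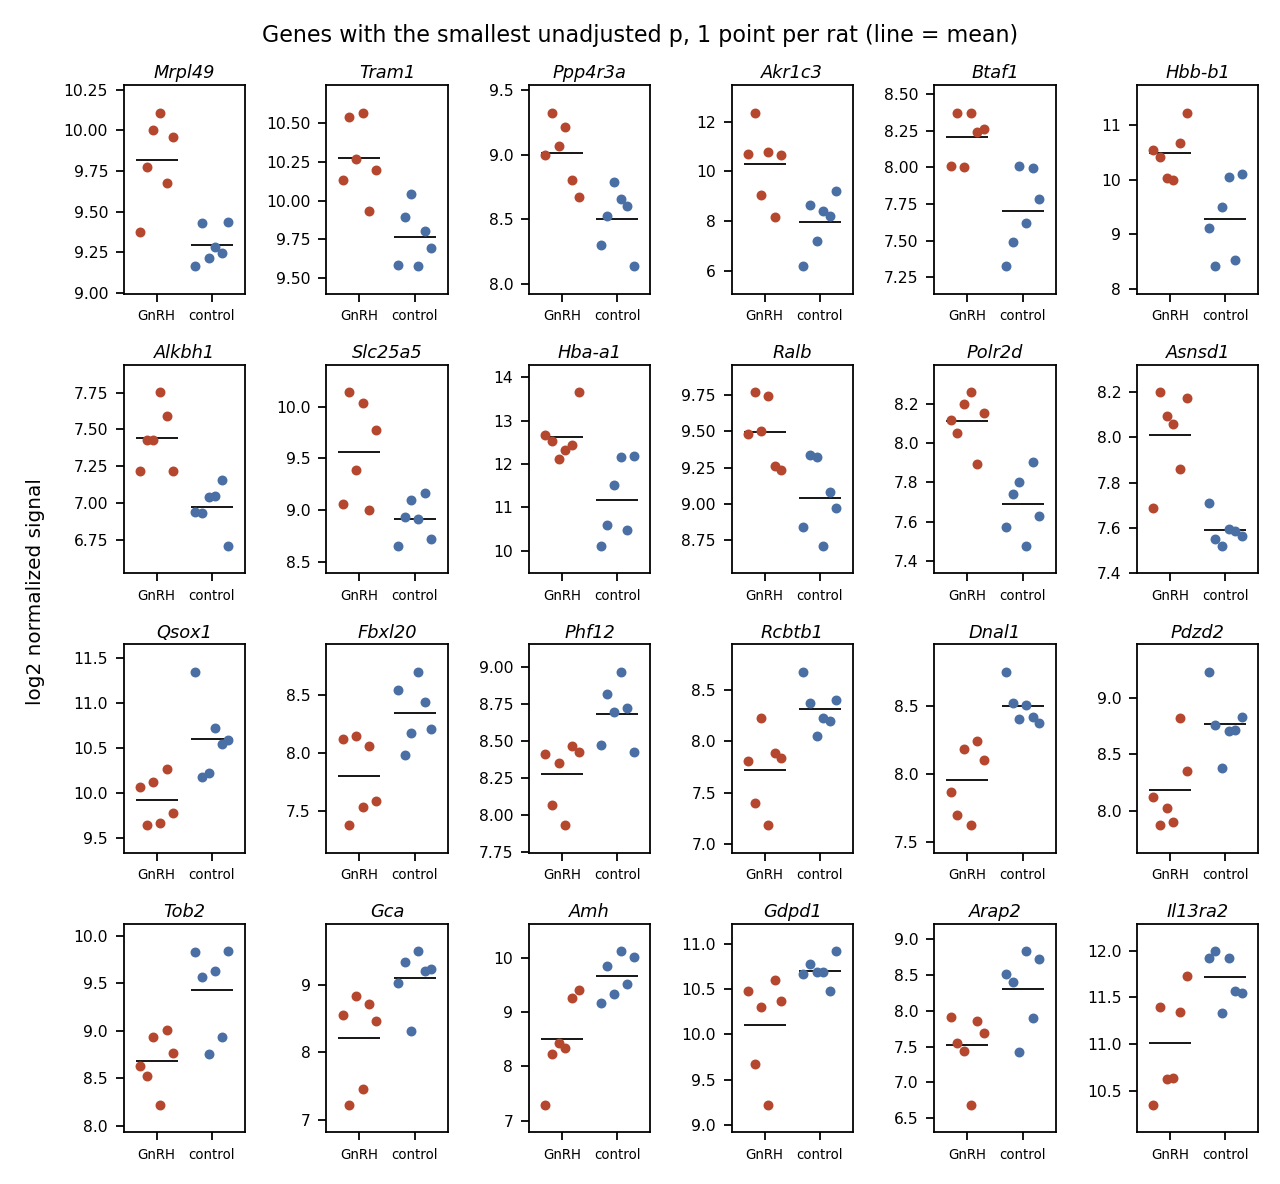
Log2 normalized signal of the 24 genes with the smallest unadjusted p, 1 panel per gene and 1 point per rat, with GnRH left, control right and lines at the group means. The first 2 rows are higher and the last 2 rows lower in GnRH; the groups overlap in all panels except Alkbh1 and Dnal1, and no gene passed adjustment (lowest adjusted p 0.337).

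Hemoglobin transcripts, a mark of red blood cells, were higher in GnRH in all 3 measured members of the erythrocyte marker list. These differences did not depend on rats 5 and 16. Hba-a1 had 12.67, 12.54, 12.12, 12.31, 12.44 and 13.65 in GnRH rats 4, 5, 6, 16, 17 and 18, against 10.12, 10.59, 11.53, 12.17, 10.47 and 12.19 in control rats 1, 2, 3, 13, 14 and 15. GnRH rat 18 was the highest, and control rats 13 and 15 overlapped the lowest GnRH rat. The difference was 1.44 ± 0.37 (SE, log2; limma, adjusted p 0.337), and 1.54 without rats 5 and 16. Hbb-b1 and Hbb differed by 1.19 ± 0.29 and 1.13 ± 0.32. Globin genes have near-identical copies, so which copy each probe reads is uncertain. The summed level of the 8 erythrocyte markers on the array was 13.05 to 14.41 on the GnRH arrays and 11.58 to 13.14 on the control arrays (log2). Alas2, Slc4a1, Ahsp and Epb42, which mark erythroid cells, were detected on 0 of the 12 arrays. Hba-a3, a hemoglobin gene outside the list and chosen after its values were seen, was low in rats 5 and 16 alone. It had 8.82 and 8.23 in these GnRH rats, against 10.13 to 11.13 in the other 10 rats. The part of blood in other differences was not tested.

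Oocyte transcripts were lower in GnRH in all 14 measured markers, with a median difference of -0.51. At an unadjusted p under 0.05, where 5.24% of all probes were lower, 5 of the 14 were lower and 0 higher, and 0 passed adjustment. With median scaling 2 of the 14 were lower at that level. These 5 were Npm2 and H1f8, which package oocyte chromatin, Gtsf1, Btg4, which directs removal of maternal messenger RNA, and Bmp15, an oocyte growth factor that acts on cumulus cells. Bmp15 had 8.81, 9.34 and 10.19 in GnRH rats and 9.45, 10.28 and 10.83 in control rats (lowest, median and highest), a difference of -0.72 ± 0.31 (SE, log2; limma, adjusted p 0.382). GnRH rats 17 and 18 lay within the control range and the other 4 below it. Gdf9, its partner growth factor, and Zp3, a zona pellucida protein, differed by -0.56 ± 0.30 and -0.52 ± 0.30.

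The oocyte markers split the control rats as well. Their median shift from the control mean was -0.69, -0.80, -0.43, -1.15, 0.03 and -0.05 in GnRH rats 4, 5, 6, 16, 17 and 18, against 0.03, 0.64, -0.64, 0.33, -0.80 and 0.65 in control rats 1, 2, 3, 13, 14 and 15. Control rats 3 and 14 were the lowest controls, and both lay within the range of the GnRH rats. The list median was -0.31 without rats 5 and 16, with 0 of 14 at an unadjusted p under 0.05, and -0.66 (3 of 14) and -0.42 (0 of 14) within rats 1 to 12 and 13 to 24. In a bulk sample fewer oocytes for the same cumulus mass and less RNA per oocyte cannot be told apart.

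In every gene list, counts at an unadjusted p under 0.05 are to be read against the shares of all tested probes. These were 6.75% higher and 5.24% lower. The lists of energy and protein metabolism come first. In glycolysis, the pathway by which cumulus cells supply the oocyte with pyruvate, 9 of 13 measured genes were higher and 0 lower at an unadjusted p under 0.05, with a median of 0.32, and 0 passed adjustment. Gpi, glucose-6-phosphate isomerase, had 9.92, 10.34 and 10.83 in GnRH rats and 9.42, 9.88 and 9.99 in control rats, a difference of 0.53 ± 0.14 (SE, log2; limma, adjusted p 0.337). GnRH rat 6 alone lay within the control range. Eno1 and Pfkl, an enolase and a phosphofructokinase, differed by 0.59 ± 0.18 and 0.72 ± 0.23. Rats 5 and 16 had the highest glycolysis medians, 0.62 and 0.98, against 0.02 to 0.37 in the other GnRH rats and -0.25 to 0.20 in control rats. Without these rats the list median was 0.19 and 3 of 13 genes, Gpi, Eno1 and Pfkp, were at that level; with median scaling there were 5.

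Oxidative phosphorylation genes had a median of 0.15, with 11 of 60 higher and 1 lower at an unadjusted p under 0.05, but 0 of 60 under median scaling. Mitochondrial ribosome genes had a median of 0.10, with 8 of 55 higher and 0 lower (2 under median scaling), and proteasome genes a median of 0.11, with 6 of 34 higher and 0 lower (0 under median scaling). Housekeeping genes had a median of the same size, 0.13, with 2 of 9 higher and 0 lower (1 under median scaling). Mrps12 of the mitochondrial ribosome had 11.01, 11.16 and 11.85 in GnRH rats and 10.64, 10.84 and 11.01 in control rats (lowest, median and highest). Its groups did not overlap, and rats 5 and 16 were the highest. The difference was 0.51 ± 0.15 (SE, log2; limma, adjusted p 0.337), and 0.27 without those rats. Secretory pathway and stress genes of the endoplasmic reticulum had a median of 0.10, with 5 of 21 higher and 1 lower. Herpud1, which takes part in the removal of misfolded proteins, differed by 0.64 ± 0.18, and Sec61b of the translocation channel by 0.92 ± 0.28, or 0.35 without rats 5 and 16.

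No difference was detected in receptor genes. The GnRH receptor gene Gnrhr was detected on all 12 arrays, with 10.15, 10.60 and 11.34 in GnRH rats and 10.12, 10.79 and 11.35 in control rats (lowest, median and highest). The groups overlapped almost fully. The difference was -0.07 ± 0.33 (SE, log2), with a 95% interval from -0.75 to 0.61. Gnrh1, the gene of the hormone itself, differed by 0.15 ± 0.12 and was detected on 5 GnRH arrays and 4 control arrays, near the detection limit. Of 9 measured genes of the receptor list, which holds gonadotropin, steroid and other receptors and Gnrh1, 0 were at an unadjusted p under 0.05. Esr2, the oestrogen receptor of granulosa cells, differed by -0.45 ± 0.22, and Igf1r and Insr, the insulin-like growth factor 1 and insulin receptors, by 0.32 ± 0.20 and 0.05 ± 0.14. Adcyap1r1 and Npr2, receptors of the Adcyap1 peptide and of C-type natriuretic peptide, differed by -0.33 ± 0.41 and -0.11 ± 0.32. Among 9 genes of GnRH and LH receptor signalling, Prkcd, a protein kinase C, differed by 0.49 ± 0.17 and Prkar1a, a regulatory subunit of protein kinase A, by 0.36 ± 0.15, while Gnas, the stimulatory G protein, differed by -0.40 ± 0.18. All 3 were at an unadjusted p under 0.05.

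For the gonadotropin receptors, the spread between GnRH rats was wider than the difference between groups. Lhcgr, the LH receptor, had 11.26, 7.69, 11.73, 8.40, 10.96 and 8.94 in GnRH rats 4, 5, 6, 16, 17 and 18, against 8.09, 8.81, 11.72, 10.18, 11.25 and 10.71 in control rats 1, 2, 3, 13, 14 and 15. Rats 5 and 16 were the lowest of the GnRH group, and control rats 1 and 2 the lowest controls. Fshr, the FSH receptor, had 7.56 and 7.70 in rats 5 and 16, against 9.44 to 9.67 in the other GnRH rats and 8.42 to 9.57 in control rats. The group differences were -0.30 ± 0.73 and -0.24 ± 0.34 (SE, log2), and 0.59 and 0.40 without rats 5 and 16.

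Over all tested probes, the spread between rats was no wider in GnRH than in control. The median SD over 6 rats was 0.260 in GnRH and 0.287 in control (log2), and the median log2 ratio of the SDs was -0.14. The SD was more than 2-fold larger in GnRH for 658 probes (9.14%) and in control for 925 (12.8%). The distance of an array from the mean of the other 5 of its group averaged 0.413 in GnRH (SD 0.081, n = 6) against 0.408 in control (SD 0.071, n = 6; exact permutation test, two-sided, p = 0.894). The widest probes ran the other way, with an SD over 1 in 119 probes in GnRH and 59 in control. Without rats 5 and 16 these counts were 22 and 58, and the median log2 ratio was -0.53. Those rats were left out because they lay far from their group, while all control rats were kept. Control rats 1 and 3 were among those kept, at similar distances of 0.493 and 0.487. The narrower GnRH spread without rats 5 and 16 follows in part from that choice. The ratio was -0.53 within rats 1 to 12 and 0.30 within rats 13 to 24, so its direction depended on the range of rats.

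**Figure D2:**
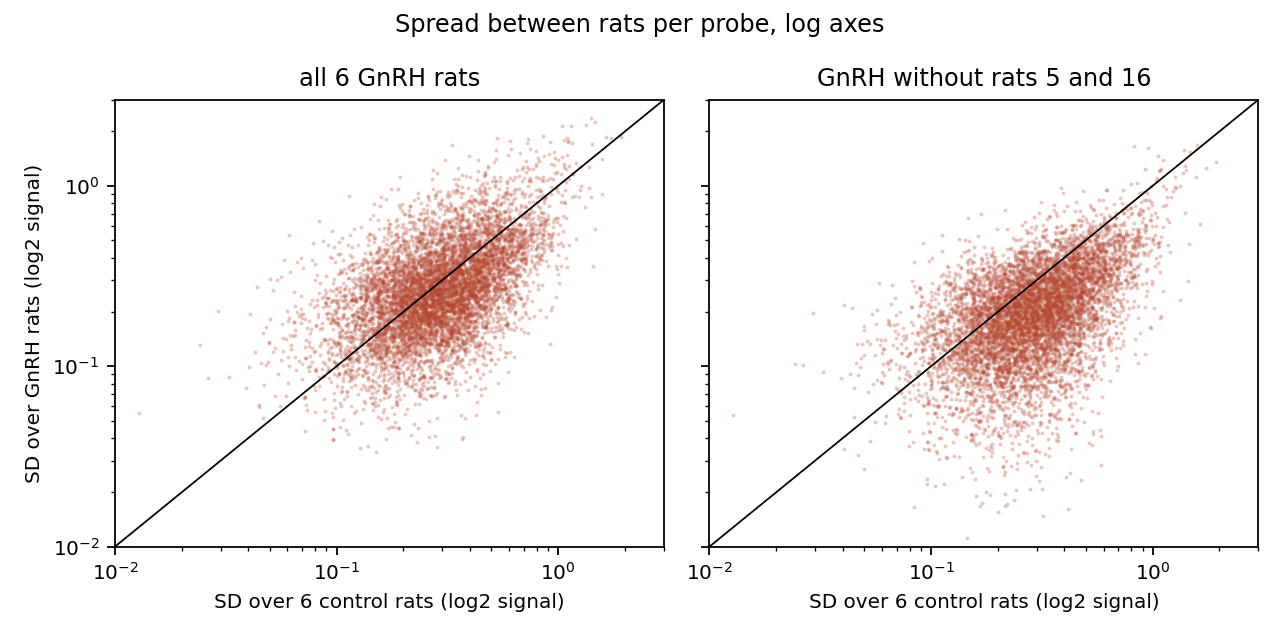
SD of log2 normalized signal over GnRH rats (vertical) against the SD over the 6 control rats (horizontal), both axes logarithmic, 1 point per tested probe, with all 6 GnRH rats at left and without rats 5 and 16 at right; the line marks equal SDs. With all rats the cloud sits near the line (median SD 0.260 in GnRH and 0.287 in control) and its upper end rises above it. Without rats 5 and 16 most points lie below, in part because those rats were left out for lying far from their group.

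The 12 genes with the widest spread within GnRH, among those detected on at least 3 GnRH arrays, ran from Mgp with an SD of 2.38 to Aig1 with 1.79. Just outside were Gsta5 with 1.78 and Idi1 with 1.77. In 10 of them rats 5 and 16 were the highest GnRH rats, and in Gstm6l and Cyp19a1 the lowest. Adamts1, a protease that cleaves versican in the expanding cumulus, had 8.53, 12.50, 7.75, 12.31, 7.77 and 9.88 in GnRH rats 4, 5, 6, 16, 17 and 18, against 8.41, 10.62, 8.01, 7.13, 8.82 and 6.97 in control rats 1, 2, 3, 13, 14 and 15. Rats 5 and 16 lay above all others, and GnRH rat 18 and control rat 2 came next. Sphk1, the kinase that makes sphingosine-1-phosphate, had 10.27 and 10.67 in rats 5 and 16, against 6.56 to 8.21 in the other GnRH rats and 6.48 to 7.91 in control rats. Hsd11b1, which activates glucocorticoids, had 11.91 and 11.61 in rats 5 and 16, 6.89 to 9.38 in the other GnRH rats and 6.96 to 9.70 in control rats.

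Cyp19a1, the aromatase that makes oestrogen, had 11.97, 9.10, 12.15, 7.68, 11.89 and 10.99 in GnRH rats 4, 5, 6, 16, 17 and 18, against 10.34, 9.55, 12.41, 11.40, 12.11 and 11.63 in control rats 1, 2, 3, 13, 14 and 15. Rats 5 and 16 were below all others, followed by control rat 2. Some of the 12 genes also spread among controls. Dusp1, a phosphatase of MAP kinases that is induced early by many stimuli, had 12.64 and 12.87 in GnRH rats 5 and 16 and 12.68 in control rat 2, against 8.48 to 11.25 in the other GnRH rats and 7.55 to 10.00 in the other control rats. Its SD was 1.83 in GnRH and 1.73 in control. Mgp, matrix Gla protein, an inhibitor of calcification, and Col1a2, a chain of type I collagen, had 11.50 and 11.95, and 10.68 and 10.61, in rats 5 and 16. In the other GnRH rats they had 6.35 to 9.03 and 6.18 to 8.34, and in control rats 6.30 to 9.87 and 6.33 to 8.53.

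**Figure D3:**
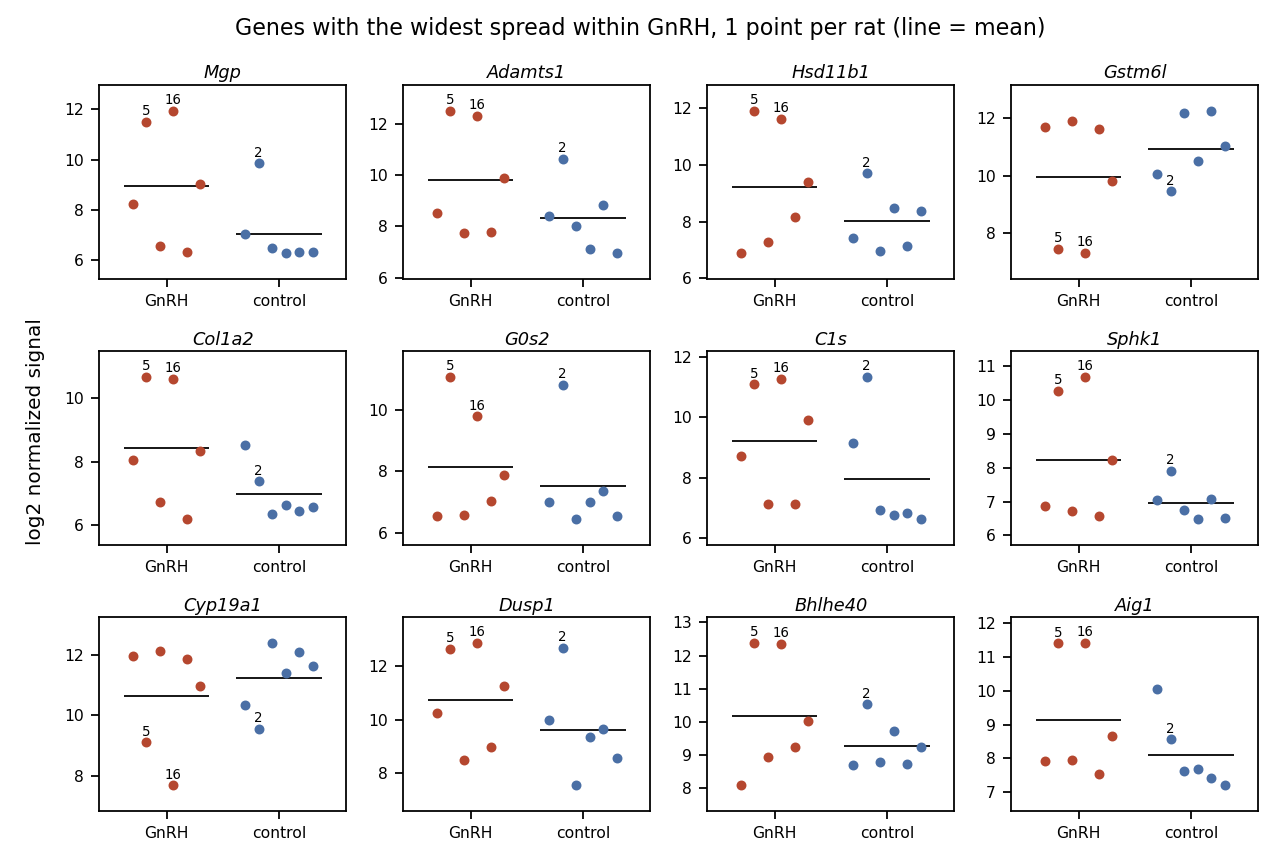
Log2 normalized signal of the 12 genes with the widest spread within GnRH, 1 panel per gene and 1 point per rat, with GnRH left, control right, lines at group means and numbers on GnRH rats 5 and 16 and control rat 2. Rats 5 and 16 form one end of the GnRH group in every panel, and control rat 2 leans the same way in most.

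LH receptor signals reach many promoters through cyclic AMP and the response element TGACGTCA, or its core TGACG. Promoter sequences were read from RefSeq (GRCr8, a window around each start site, both strands searched), where 7 of the 12 widest genes had an entry. TGACGTCA was in 1 of the 7 genes, Dusp1, and in 1.83% of 33469 promoters of the table. TGACG, which overlaps it, was in 4 of 7, Adamts1, Sphk1, Dusp1 and Aig1, and in 21.2% of promoters. A gene was counted where any of its promoters matched: Sphk1 had 3 entries, 1 of them without TGACG, and the other 6 genes had 1 each. The E-box CACGTG was in Dusp1 and Bhlhe40 and in 6.42% of promoters, and CAAGGTCA, a site of steroidogenic factor 1, in 0 of 7 and 1.52% of promoters. The promoters of Adamts1 (chr11:38427335-38427634, minus strand) and Dusp1 (chr10:17184603-17184902, plus strand) are shown because these 2 genes are both among the 12 widest and on the LH surge list. Capitals mark matches to these motifs, which are matches of letters only and show no binding.
Adamts1: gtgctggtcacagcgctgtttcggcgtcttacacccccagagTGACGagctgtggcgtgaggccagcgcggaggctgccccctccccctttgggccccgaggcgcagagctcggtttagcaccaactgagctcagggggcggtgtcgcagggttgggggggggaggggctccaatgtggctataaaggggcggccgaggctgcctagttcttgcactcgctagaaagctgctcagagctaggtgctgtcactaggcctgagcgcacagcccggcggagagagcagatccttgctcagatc
Dusp1: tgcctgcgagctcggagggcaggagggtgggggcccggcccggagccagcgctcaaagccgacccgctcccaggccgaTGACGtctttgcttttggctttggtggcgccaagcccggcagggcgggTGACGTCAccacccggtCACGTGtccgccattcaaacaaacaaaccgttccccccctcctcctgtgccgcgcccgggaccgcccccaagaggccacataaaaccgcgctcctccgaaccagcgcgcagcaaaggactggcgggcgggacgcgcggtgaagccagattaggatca

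To place each rat on the response to hCG, probes that differed between GnRH+eCG+hCG and GnRH+eCG (limma, adjusted p under 0.05 and at least 2-fold) were read in the GnRH and control arrays. The levels of GnRH and control did not enter that contrast, but their arrays set the detection filter and shared in the estimate of the spread. Genes absent from most of these 12 rats, such as Areg, Ereg, Ptgs2, Pgr and Runx1, were therefore not among the probes of the score. There were 209 probes higher and 383 lower with hCG. The score was set to average 0 in GnRH+eCG and 1 in GnRH+eCG+hCG. It was -0.06, 0.52, -0.12, 0.50, -0.21 and -0.09 in GnRH rats 4, 5, 6, 16, 17 and 18, against -0.16, -0.07, -0.10, -0.24, -0.07 and -0.32 in control rats 1, 2, 3, 13, 14 and 15. Rats 5 and 16 lay midway between the yardstick groups, which ran from 0.92 to 1.12 with hCG and from -0.20 to 0.17 without. The other 4 GnRH rats lay within or just above the range of the control rats. With no detection filter the score was 0.46 in rat 5 and 0.43 in rat 16.

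**Figure D4:**
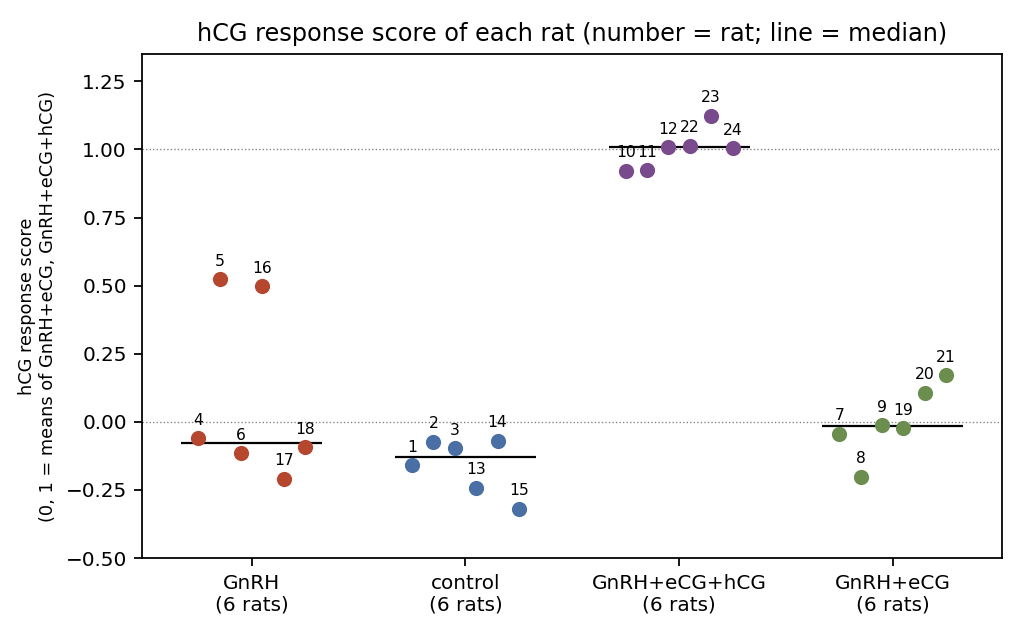
hCG response score of each of the 24 rats, numbered, with GnRH left of control and GnRH+eCG+hCG left of GnRH+eCG; black lines are medians. GnRH rats 5 and 16, at 0.52 and 0.50, lie above the other GnRH and control rats (-0.32 to -0.06) and below the hCG rats (0.92 to 1.12).

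Of the 209 probes higher with hCG, 157 (75.1%) in rat 5 and 132 (63.2%) in rat 16 lay above all 6 control values, against 9 to 28 in each other GnRH rat. Of the 383 lower with hCG, 208 (54.3%) and 257 (67.1%) lay below all control values in rats 5 and 16, against 11 to 37 in the others. Over all 7200 probes 18.8% and 22.7% lay above all control values in rats 5 and 16, and 23.9% and 25.9% below. Conversely, 202 probes were more than 2-fold above and 105 more than 2-fold below the 12-array median in both rats, and 0 ran in opposite directions. Of the 202, 107 (53.0%) were also higher with hCG than in GnRH+eCG at an adjusted p under 0.05 (limma), where 15.4% of all tested probes were, and 0 were lower. Of the 105, 62 (59.0%) were lower with hCG, where 23.4% of all were, and 2 were higher, Tle4 and Gclm. The remaining 95 and 41 probes were not called with hCG.

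The match to hCG was partial at the level of genes. Errfi1, a feedback inhibitor of the epidermal growth factor receptor, had 11.11 and 10.82 in rats 5 and 16, against 7.19 to 8.47 in the other GnRH rats and 7.04 to 8.93 in control rats. It was higher by 3.22 with hCG (log2; limma, adjusted p 6.05e-05). Gsta5, a glutathione transferase, had 11.54 and 10.87 in rats 5 and 16, 7.29 to 8.70 in the other GnRH rats and 6.97 to 8.67 in control rats. Inhbb, an inhibin and activin subunit that was lower by 2.47 with hCG, had 7.60 and 8.05 in rats 5 and 16, 9.90 to 10.10 in the other GnRH rats and 9.21 to 9.65 in control rats. In contrast Adcyap1, an LH-induced peptide and the tested gene raised most by hCG, had 7.62 and 7.05 in rats 5 and 16, within the 6.68 to 8.18 of the other GnRH rats and the 6.91 to 8.56 of control rats. Pla2g4a, the phospholipase that frees arachidonic acid for prostaglandin synthesis, had 7.78 and 7.66 in rats 5 and 16, 7.22 to 7.63 in the other GnRH rats and 6.75 to 7.54 in control rats.

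The early genes of the LH surge divided in the same way. Those named in the account of this list, apart from Vcan and Adamts1, and Tle4, Gclm, Lum and Dcn, were chosen after their values were seen. Of 26 on the array, 17 and 16 were detected in rats 5 and 16, against 8 to 11 in the other GnRH rats and 7 to 13 in control rats. Of the list 10 members passed the detection filter, 1 was higher and 0 lower at an unadjusted p under 0.05, and their median shift was 0.69 and 0.52 in rats 5 and 16 but 0.92 in control rat 2. Runx1, a transcription factor induced by LH, had 10.82 and 10.80 in rats 5 and 16, near the hCG median of 11.67, and 6.20 to 7.68 in the other GnRH rats and 6.31 to 7.51 in control rats. Snap25, a protein of vesicle secretion, had 10.15 and 9.03 in rats 5 and 16, 6.17 to 6.70 in the other GnRH rats and 6.01 to 6.61 in control rats. Ereg, the epidermal growth factor-like ligand epiregulin, had 8.58 and 7.93 in rats 5 and 16, below the hCG median of 11.94, and was detected in no other GnRH or control rat. Cebpb, a transcription factor of luteinization, had 8.76 and 8.67, against 6.61 to 7.09 in the other GnRH rats and 6.54 to 7.23 in control rats.

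The other 4 genes named here were not detected in any of the 12 rats. Areg, amphiregulin, Ptgs2, the inducible prostaglandin synthase, Pgr, the progesterone receptor, and Has2, the hyaluronan synthase of cumulus expansion, were detected on 0 of 12 arrays. Their signals in rats 5 and 16 were 6.76 and 6.69 for Areg, 6.55 and 6.51 for Ptgs2, 6.67 and 6.37 for Pgr and 6.49 and 6.25 for Has2. In the hCG rats their medians were 11.58, 12.97, 11.22 and 7.81. The 4 measured cumulus expansion genes had a median shift of -0.24 and -0.25 in rats 5 and 16, against 0.04 to 0.69 in the other GnRH rats and -0.45 to 0.12 in control rats. Vcan, the versican that Adamts1 cleaves, differed between GnRH and control by 0.26 ± 0.11 (SE, log2; limma, adjusted p 0.382).

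Lists of follicle function were shifted in rats 5 and 16 and lay near the control range in the other GnRH rats. Genes that respond to FSH and oestrogen in granulosa cells had a median shift of -1.16 and -1.32 in rats 5 and 16, against -0.03 to 0.28 in the other GnRH rats and -0.40 to 0.20 in control rats. Over the group, 1 of 15 was lower at an unadjusted p under 0.05 and 0 higher, where 5.24% and 6.75% of all tested probes were. Luteinization genes had 1.65 and 1.20 in rats 5 and 16, 0.14 to 0.37 in the other GnRH rats and -0.69 to 0.64 in control rats, with 3 of 12 higher and 0 lower. Cholesterol biosynthesis genes had 1.06 and 1.28 in rats 5 and 16, -0.28 to 0.43 in the other GnRH rats and -0.43 to 0.57 in control rats, with 2 of 13 higher and 0 lower. Without rats 5 and 16 the median differences of these 3 lists were 0.10, 0.16 and -0.01, against -0.35, 0.68 and 0.41 with them.

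The remaining lists are given beside the 6.75% of all tested probes higher and the 5.24% lower at an unadjusted p under 0.05. Steroidogenesis genes had a median difference of 0.30, with 1 of 14 higher and 0 lower, and luteal cell markers 0.42, with 2 of 5 higher and 0 lower. Glutathione enzymes had 0.15, with 2 of 20 higher and 1 lower, and cytosolic ribosome genes 0.05, with 4 of 55 higher and 0 lower. Genes of cyclic nucleotide signalling and meiotic arrest had -0.18 (0 of 6), mural granulosa markers -0.24 (0 of 5) and inflammation genes -0.21 (0 of 2). Theca and stroma markers had 1.46, with 2 of 3 measured members higher, and 0.35 without rats 5 and 16. The detection filter shaped this list. Col1a2 passed it on 4 GnRH and 2 control arrays, so mostly through the group where it was higher. Cyp17a1, detected on 0 GnRH and 2 control arrays, did not pass. The list median and count are therefore no support for a shift.

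Single genes of the FSH, luteinization and cholesterol lists showed the same ordering. Scarb1, the receptor that takes up cholesterol from lipoproteins, had 10.79 and 11.40 in rats 5 and 16, 8.21 to 9.21 in the other GnRH rats and 6.98 to 9.61 in control rats. Star, which carries cholesterol into mitochondria, had 10.33 and 9.70 in rats 5 and 16, 7.01 to 8.76 in the other GnRH rats and 6.61 to 9.98 in control rats, where control rat 2 was the highest. Idi1, of the cholesterol pathway, had 12.19 and 12.14 in rats 5 and 16, 8.45 to 10.09 in the other GnRH rats and 8.13 to 11.09 in control rats, again with control rat 2 the highest. Bmpr1b, a receptor of oocyte growth factors, had 8.09 and 7.90 in rats 5 and 16, 9.10 to 9.91 in the other GnRH rats and 9.09 to 9.98 in control rats. Cell cycle genes had medians of -0.81 and -0.78 in rats 5 and 16, against -0.24 to 0.29 in the other GnRH rats and -0.41 to 0.23 in control rats, with 0 of 23 at an unadjusted p under 0.05 over the group.

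**Figure D5:**
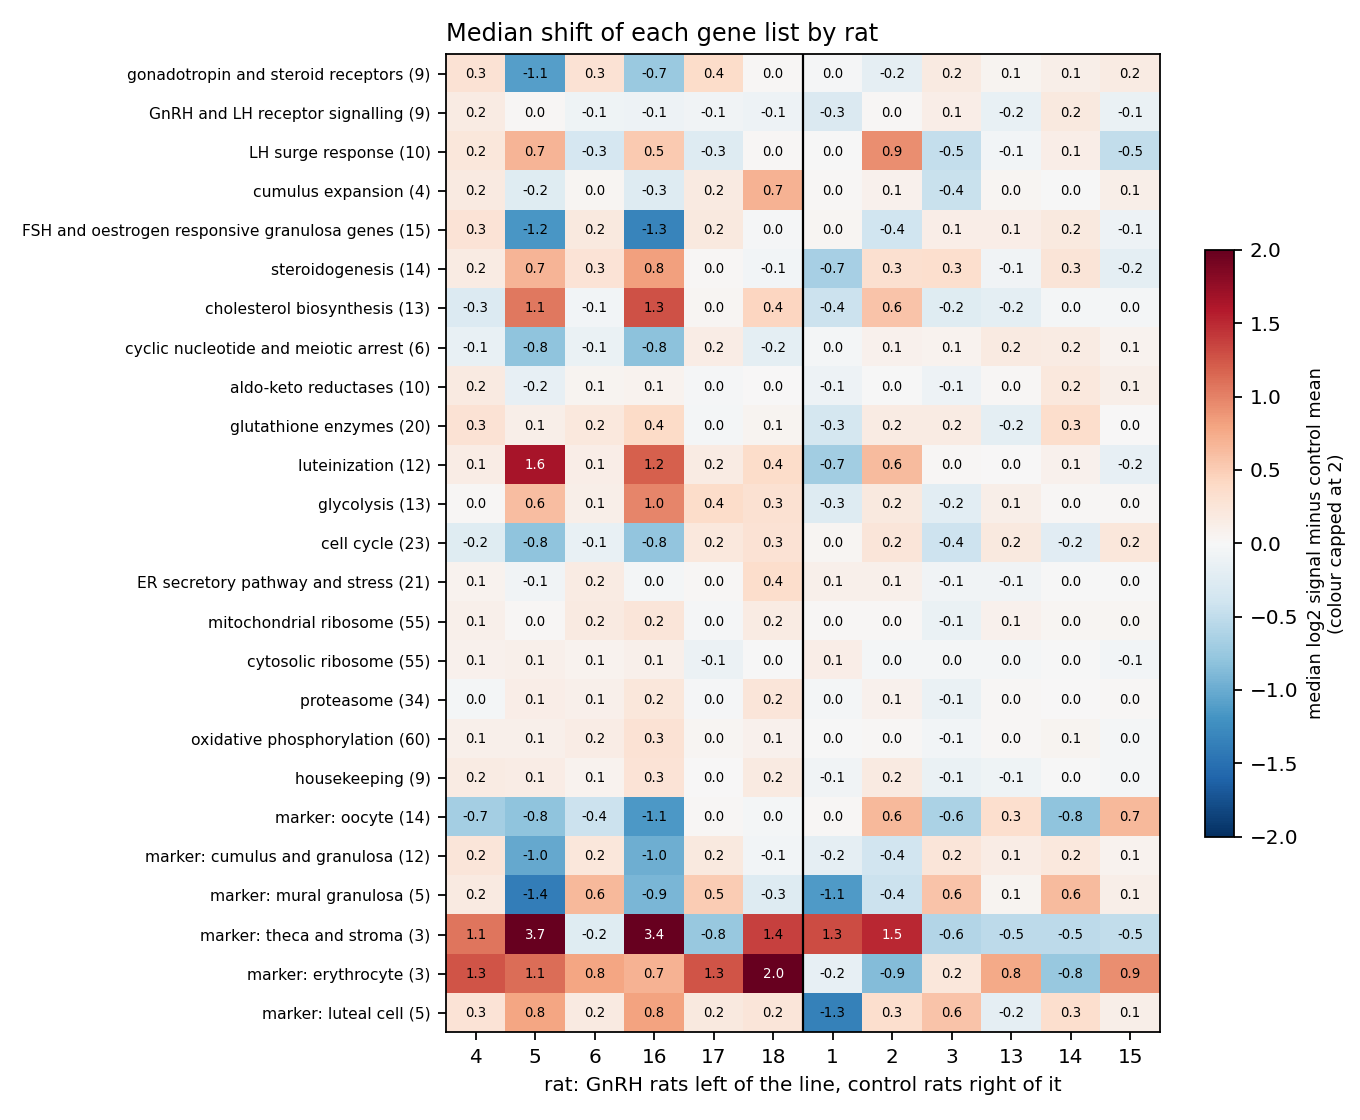
Median over the measured members of each gene list (number in parentheses) of log2 normalized signal minus the control mean, 1 column per rat, GnRH rats left of the line and control rats right; red is higher and blue lower, with colours capped at 2. GnRH rats 5 and 16 share large shifts, such as -1.16 and -1.32 for FSH and oestrogen responsive genes. Hemoglobin markers are positive in all 6 GnRH rats (0.70 to 2.02). They are also positive in control rats 3, 13 and 15 (0.22, 0.76 and 0.93), of which rats 13 and 15 overlap the lowest GnRH rats.

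Some markers of other cells were higher in rats 5 and 16. Of 11 theca and stroma markers on the array, 6 were detected in each of rats 5 and 16, against 0 to 4 in the other GnRH rats and 1 to 3 in control rats. Their summed level was 9.99 to 13.06 on the GnRH arrays and 9.97 to 11.32 on the control arrays (log2). Col1a1, a chain of type I collagen, had 11.67 and 11.26 in rats 5 and 16, 7.11 to 10.15 in the other GnRH rats and 6.70 to 9.37 in control rats. The collagen fibril proteins Lum and Dcn were detected only in rats 5 and 16 among the 12, with 9.42 and 8.74, and 8.78 and 7.57. The theca cell markers Cyp17a1 and Insl3 were detected on 0 GnRH arrays.

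Of 13 leukocyte markers on the array, 6 were detected in rat 5 and 2 in rat 16, against 1 to 4 in the other GnRH rats and 1 to 3 in control rats, with Ptprc detected on 0 of 12 arrays. Their summed level was 10.16 to 11.92 in GnRH and 10.18 to 10.37 in control. Of 9 endothelial markers on the array, 6 were detected in rat 5 and 0 in rat 16, against 0 to 1 in the other GnRH rats and 0 to 4 in control rats. Emcn and Esam, membrane proteins of endothelial cells, had 9.36 and 8.91 in rat 5, against 6.15 to 6.33 and 6.55 to 7.50 in the other 11 rats, while Cdh5 and Flt1 were detected on 0 of 12 arrays. The endothelial markers summed to 9.68 to 11.04 in GnRH and 9.77 to 9.84 in control. Oviduct and surface epithelium markers summed to 9.78 to 10.47 in GnRH and 9.72 to 11.76 in control. Of 10 on the array, 0 to 3 were detected in GnRH rats, 6 in control rat 1 and 0 to 2 in the other control rats, and Krt7, Pax8, Muc1 and Msx1 on 0 of 12 arrays. Epcam and Sntn had 9.89 and 9.62 in control rat 1. The keratin Krt8 had 8.47 and 9.41 in GnRH rats 5 and 16, 6.29 to 7.77 in the other GnRH rats, 9.49 in control rat 1 and 6.23 to 6.63 in the other control rats. Of 14 cumulus and granulosa markers, 11 to 12 were detected on every array, and their summed level was 15.13 to 16.00 in GnRH and 15.52 to 16.01 in control. Their median shift was -1.02 and -0.98 in rats 5 and 16, against -0.06 to 0.24 in the other GnRH rats and -0.38 to 0.25 in control rats. The part of stromal, endothelial, epithelial and other cells in the values of rats 5 and 16 and of control rat 1 was not tested. The markers named in these accounts were chosen after their values were seen.

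Control rat 2 shared some of the pattern of rats 5 and 16. It lay more than 2-fold above the 12-array median in 37 (18.3%) of their 202 higher probes and more than 2-fold below in 19 (18.1%) of their 105 lower probes. GnRH rat 18 did so in 16 (7.92%) and 7 (6.67%), and control rat 1 in 15 (7.43%) and 8 (7.62%). In the other 7 rats these counts were 0 to 4 and 0 to 6. Over all 7200 tested probes, control rat 2 lay that far above in 117 and below in 48. GnRH rat 18 did so in 33 and 17, control rat 1 in 152 and 155, and the other 7 rats in 9 to 141 and 15 to 64. The hCG response score of control rat 2, at -0.07, lay within the range of the other control rats.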

How the data were processed

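RNA of rat cumulus-oocyte complexes was amplified, labelled with biotin and hybridised to Illumina bead arrays, per the labels. The deposited values are linear probe intensity values, summarised with BeadStudio per the submitters' processing notes, and no normalization of them is given in the sources used here. A deposited detection fraction from 0 to 1 accompanies each intensity; it is called a p-value in the file header, but it increased with signal on every array and was read as 1 minus the detection p. Of 22226 probes, 21946 were joined to it by identifier and 280 by their 24 signals (tolerance 0.002 log2). The platform annotation named 13599 probes with 1 symbol, left 8627 unnamed and gave several symbols to 0 probes; 13559 matched RefSeq GRCr8.

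All 24 arrays were corrected and quantile normalized with neqc (offset 16) and fitted with 1 mean per group in limma 3.58.1 (R 4.3.3; lmFit, eBayes, Benjamini-Hochberg adjustment). The procedure was tested on simulated data. Descriptions and the exact permutation test used Python 3.11.15, pandas 2.3.3 and scipy 1.17.1. Of several probes of 1 gene, the brightest on average stood for the gene. The genes named were the 12 with the smallest p in each direction, up to 4 per list by p, the 12 with the widest SD within GnRH, all measured receptors, hemoglobin and oocyte markers, and the 6 most raised and 6 most lowered by hCG. The arrays, the leaving out of rats 5 and 16, and the 29 lists, 9 of them cell type markers, were chosen with earlier results of these data known. Arrays give no read depth, and 6 arrays per group limit the precision. The 25 alternative settings covered normalization, offset, detection filter, arrays fitted, variance model, array weights, rat number range and left-out arrays.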

Additional observations from a re-analysis of the deposited data

Results flagged for a closer look

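In 288 groups of 6 rats, from 140 genes and 4 measures of each array in both groups, 14 values lay so far from the nearest other rat of their group that the gap, as a share of the group's range, exceeded Dixon's 95% critical value for 6 samples. Chance gives such a gap in about 1 in 20 groups. Among GnRH rats, Hba-a1 was 13.65 in rat 18 (nearest 12.67), Timp3, an inhibitor of matrix proteases, was 9.40 in rat 5 (nearest 8.98), and Herpud1 was 8.33 in rat 4 (nearest 9.15). In control rat 2, Mgp was 9.87 (nearest 7.07), G0s2, an inhibitor of fat breakdown, 10.80 (nearest 7.37), and Sec61b 9.40 (nearest 8.93). In the same rat the cholesterol genes Star, Cyp51 and Idi1 were 9.98, 9.33 and 11.09 (nearest 7.67, 7.87 and 8.72), and Nr5a2, a nuclear receptor of granulosa cells, was 10.46 (nearest 10.74). In control rat 1, Cyp11a1 and Fdx1, which make pregnenolone from cholesterol, were both 11.38 (nearest 12.77 and 12.51), and Gstk1, a glutathione transferase, was 8.36 (nearest 8.77). Insr was 10.11 in control rat 15 (nearest 10.47). All values are log2 normalized signals.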

How the results depend on the processing

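No probe passed an adjusted p under 0.05 in any of the 25 alternative settings (limma), and the lowest adjusted p over them was 0.108, without GnRH rat 4. The 863 probes at an unadjusted p under 0.05 became 373 with median scaling, 1551 of 22226 without a detection filter, 548 with only the 12 arrays in the fit, 275 in rats 1 to 12, 475 in rats 13 to 24 and 233 without GnRH rats 5 and 16. Leaving out 1 array gave 422 to 1296. Of the 863, 56.3% were higher in GnRH. That share was 42.3% with array weights (393 higher, 537 lower), 44.4% without control rat 3 and 72.1% without rats 5 and 16. The median log2 ratio of SDs, -0.14, was -0.26 with median scaling, -0.53 in rats 1 to 12, 0.30 in rats 13 to 24 and -0.53 without rats 5 and 16. Leaving out 1 array gave -0.24 to 0.018, with -0.02 without control rat 3. The difference in distance from the own group was -0.0275 to 0.0359 with 1 array left out (exact permutation p 0.42 to 1), and -0.094 without rats 5 and 16 (exact permutation p 0.019). Those rats were left out because they lay far from their group, while control rats 1 and 3, at similar distances, were kept. This lower GnRH spread follows in part from that choice, so its p is no support for a narrower spread. Of 3460 values of 140 named genes under these settings, 0 were called and 73 had the opposite sign, none of them among the 24 genes of smallest p. Those 24 were picked for a small p on the same arrays, which favours a kept sign. The cause of these shifts was not tested. No paired analysis was possible because no rat number occurs in more than 1 group. Genes detected on few arrays lie near background, where log2 differences are compressed.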

Other observations

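The probes shared by GnRH rats 5 and 16 carried 165 higher and 77 lower named genes, and those given here were chosen after their values were seen. Nt5e, the surface enzyme that makes adenosine, had 11.08 and 10.76 in rats 5 and 16, against 6.93 to 8.52 in the other 10 rats (log2). Its medians were 11.67 in GnRH+eCG+hCG and 9.39 in GnRH+eCG. Slc7a1, a transporter of arginine and lysine, had 10.83 and 10.84 in rats 5 and 16, against 6.65 to 8.65 in the other 10. Trib2, a pseudokinase, had 10.68 and 10.75, against 11.71 to 12.52, and its hCG median was 10.07. These 3 genes thus lay on the same side in rats 5 and 16 as with hCG. Of the higher genes with the largest shared shifts, Mgp, Adamts1, Col1a2, Aig1 and Hsd11b1 were not called with hCG. Their adjusted p ran from 0.055 to 0.24 (limma, hCG against GnRH+eCG). All 5 were still higher with hCG, by 1.00 to 1.68 (log2), the same direction as in rats 5 and 16. Adamts1, for example, had medians of 11.81 with hCG and 9.99 in GnRH+eCG. Not being called is therefore no sign of a mismatch with hCG. Idi1 and Sphk1 were called, with adjusted p of 0.0050 and 0.0055.

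Gclm lay on the opposite side in rats 5 and 16 to that with hCG. This subunit of the enzyme that limits glutathione synthesis had 10.45 and 10.22 in rats 5 and 16, against 11.09 to 11.71 in the other 10 rats, while its medians were 12.61 in GnRH+eCG+hCG and 11.60 in GnRH+eCG. Tle4, a transcriptional corepressor, had 6.82 and 6.62 in rats 5 and 16, against 7.06 to 8.52 in the other 10, and medians of 8.63 with hCG and 7.51 without. Edn2, endothelin 2, a vasoconstrictor peptide made by granulosa cells near ovulation, had 8.01 and 7.46 in rats 5 and 16. It was detected in no other GnRH or control rat. With hCG it was mostly near background: it was detected on 1 GnRH+eCG+hCG array and 0 GnRH+eCG arrays, with medians of 6.74 and 6.21.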
